A study of Mus musculus with 9 samples.

Results

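RAB GTPases are small switch proteins that mark the membranes of the cell, and 59 RAB genes were read out of the 18193 genes measured in a mouse megakaryocytic line. Each RAB cycles between a GTP-bound form on a membrane, where it recruits motors, tethers and fusion factors, and a GDP-bound form held in the cytosol. Exchange factors (GEFs) switch a RAB on, GTPase activating proteins (GAPs) switch it off, and effectors carry out its work. In megakaryocytes and platelets RAB proteins are known for building dense and alpha granules, for moving them to the cell surface and for recycling adhesion receptors. Members were all genes whose symbol is Rab followed by a number and an optional letter, so relatives with other name forms were left out. The probe set of each gene was chosen by its mean signal over the 9 arrays, the highest being taken, a choice that used no group label. By their known main site of action, 16 members were placed in a secretory class (endoplasmic reticulum, Golgi and post-Golgi traffic), 21 in an endosomal class, 12 in a granule class and 10 in a group of other RABs.

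The cells were L8057, a mouse megakaryocytic leukaemia line, and every group was infected with a lentivirus, selected with puromycin and exposed to the phorbol ester TPA, which drives these cells towards maturation. CBFb_KD cells carried an shRNA against CBFb, the partner subunit of the RUNX transcription factors. Ring1b_KD cells carried an shRNA against Ring1b, the ubiquitin ligase subunit of Polycomb repressive complex 1, encoded by Rnf2. Control cells carried the empty vector, so no non-targeting hairpin was compared here, and the labels give neither the hairpin sequences nor how many were used. TPA (50 nM) went in with the puromycin, 48 h after the virus, and the cells were harvested 72 h on, so TPA was present for 3 days. The submitters call the 3 arrays of a group biological triplicates. Nothing in the labels says whether these were separate infections. A p-value here therefore reflects array-to-array spread within a group, and precision is limited by having 3 arrays in each.

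The targeted genes checked the labels. The Cbfb signal was 12.36 ± 0.12 (log2, SD, n = 3) in Control and 9.19 ± 0.11 in CBFb_KD, and Rnf2 was 10.65 ± 0.08 in Control and 8.98 ± 0.08 in Ring1b_KD. Both fell in their own knockdown (limma adjusted p = 3.28e-10 for Cbfb and 3.31e-07 for Rnf2). Array medians ran from 6.51 to 6.65 before normalization and were highest in Ring1b_KD, and correlations between arrays were 0.995 to 0.997 within groups and 0.987 to 0.994 between groups. Of 14 megakaryocyte markers measured, 8 or 9 lay at or above the median gene (7.42) in each group, while Vwf, Nfe2, Tubb1, Itgb3 and Selp lay below it in all groups. The arrays read whole cultures, so fewer cells of a type and less RNA per cell cannot be told apart.

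Promoters of RAB genes that rose in CBFb_KD are shown first, because CBFb acts through DNA-bound RUNX factors. Those printed each hold a motif match and do not stand for the called genes as a set. RefSeq windows on GRCm38.p6, from 250 bases before to 50 after the transcript start, were found for 48 of the 59 genes (60 windows) and for 19 of the 25 genes called in any comparison. Rab27b and Rab38 were among the genes without a window. The RUNX core TGTGGT, searched on both strands, was in 10 of 60 RAB windows (16.7%) and in 16.8% of all 32851 windows. Among windows of RAB genes called in CBFb_KD against Control, 3 of 15 held it. Of these, Rab11a had the core starting at -105 and Rab33b had it on the opposite strand at -53, counted from the transcript start. The core of Rab43 lay at +40, past the start. The window of Rab20 held no RUNX core and held the E-box CACGTG at -46, a motif found in 6 of 60 RAB windows (10%) and 7.15% of all windows. The 250 bases before the start of these genes are printed 5′ to 3′ on the gene's strand, with the motif in capitals, for Rab11a (chr9:64737757-64738006, minus strand, 53.6% GC), Rab20 (chr8:11478641-11478890, minus strand, 65.2% GC) and Rab33b (chr3:51483716-51483965, plus strand, 69.2% GC).
Rab11a: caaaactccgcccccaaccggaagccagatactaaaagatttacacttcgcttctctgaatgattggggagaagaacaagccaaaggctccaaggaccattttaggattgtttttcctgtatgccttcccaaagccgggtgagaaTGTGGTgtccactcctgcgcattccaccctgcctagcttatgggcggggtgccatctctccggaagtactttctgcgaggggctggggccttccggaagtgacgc
Rab20: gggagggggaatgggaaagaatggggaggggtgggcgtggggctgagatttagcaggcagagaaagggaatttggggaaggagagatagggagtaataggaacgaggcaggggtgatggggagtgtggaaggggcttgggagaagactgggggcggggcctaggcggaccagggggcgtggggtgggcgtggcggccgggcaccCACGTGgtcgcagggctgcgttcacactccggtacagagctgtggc
Rab33b: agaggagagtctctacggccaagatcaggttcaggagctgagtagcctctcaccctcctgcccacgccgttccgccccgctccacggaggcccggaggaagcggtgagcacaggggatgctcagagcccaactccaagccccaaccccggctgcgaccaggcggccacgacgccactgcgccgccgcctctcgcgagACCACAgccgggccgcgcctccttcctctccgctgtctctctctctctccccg
The related RUNX form TGCGGT was in 6 of 60 RAB windows (10%) against 6.45% of all windows. The AP-1 and NF-E2 core TGAGTCA was in 3 of 60 (5%) against 5.2% of all, and in 0 of the 24 windows of called RAB genes. A match is a stretch of letters and not a measured binding site. The median GC content was 61.2% in RAB windows and 52.7% in all windows.

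In CBFb_KD, 15 of 59 RAB genes were called against Control (25.4%), against a background of 15.4% of all genes. A gene was called at a Benjamini-Hochberg adjusted p under 0.05 over all genes by limma. Of the 15, 14 rose (7.78% of all genes rose) and Rab38 fell (7.6% of all genes fell). The median log2 fold change of the 59 genes was 0.06, where that of all genes was -0.01. The arrays of CBFb_KD and Control did not overlap for 19 RAB genes that were higher and 4 that were lower, where 31.6% of all genes had no overlap. The count of 15 fell to 9 without CBFb_KD array 2 and to 8 without CBFb_KD array 3.

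In Ring1b_KD, 8 of 59 RAB genes were called against Control (13.6%), near the background of 12.2%. In this comparison 6 rose (5.66% of all genes rose) and 2 fell (6.57% of all genes fell), a split that depended on scaling: it was 2 higher and 3 lower with the values as deposited, and 2 higher and 7 lower with arrays centred on their medians. The median was 0.02 for the RAB genes and 0.01 for all genes. Arrays did not overlap for 15 RAB genes that were higher and 9 that were lower, against 32.9% of all genes. The count was 4 without Ring1b_KD array 2 or without Control array 2, and 3 without Control array 1 or without Control array 3. Both knockdowns were set against the same Control arrays, so their results are not independent, and 2 RAB genes, Rab27b and Rab43, rose in both. None was called in opposite directions.

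Between the knockdowns, 17 RAB genes differed (28.8%), against 19.4% of all genes, with 13 higher in CBFb_KD (10.1% of all genes) and 4 lower (9.31% of all genes). The split was 13 to 2 with the values as deposited and 15 to 2 with centred arrays, and without CBFb_KD array 3 the count was 11. Across the 3 comparisons, 25 RAB genes were called at least once and 34 never. Those 34 had log2 fold changes from -0.28 to 0.29 in CBFb_KD and from -0.22 to 0.2 in Ring1b_KD. Of the 59, 20 had a mean signal below the median gene, where array summaries compress differences.

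**Figure D1:**
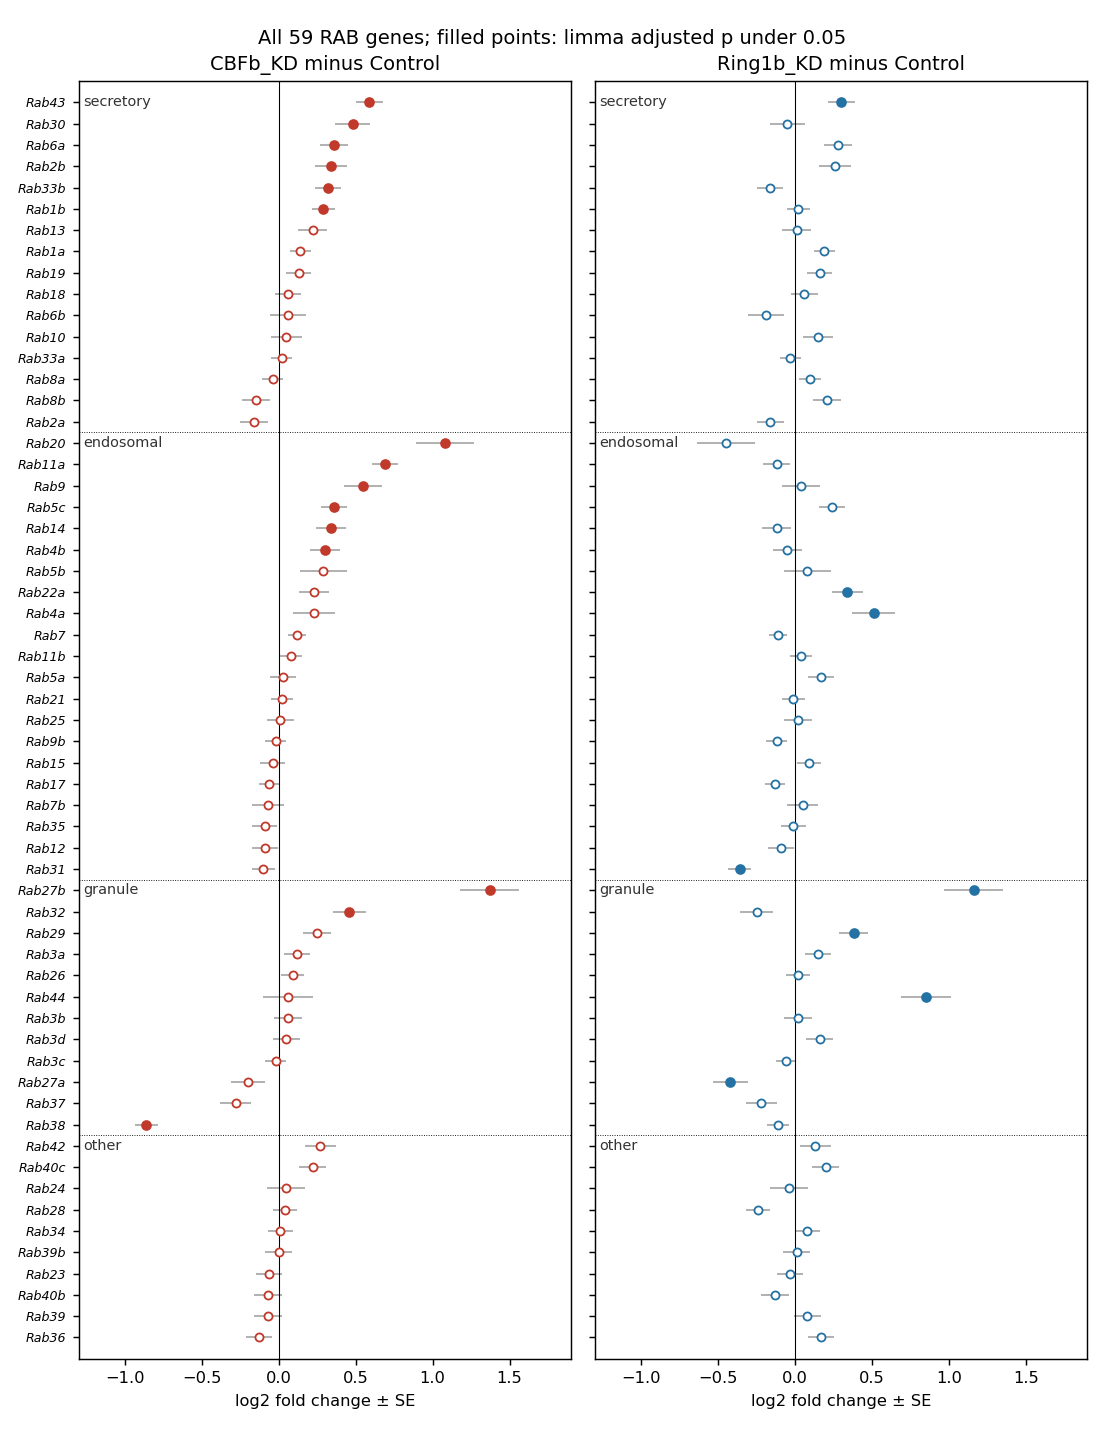
Log2 fold change with its standard error for each of the 59 RAB genes in each knockdown against Control, from limma on 3 arrays a group. Filled points passed an adjusted p of 0.05: 15 genes in CBFb_KD and 8 in Ring1b_KD.

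Among the granule RABs, Rab27b rose in both knockdowns. Rab27b docks dense granules at the plasma membrane and takes part in their formation and release in platelets. Its log2 signal was 10.36, 10.62 and 9.76 in the Control arrays, 11.32, 11.89 and 11.65 in CBFb_KD, and 11.47, 11.56 and 11.19 in Ring1b_KD. Every knockdown array lay above every Control array, and the knockdowns overlapped each other. The rise was 2.59-fold in CBFb_KD (log2 1.37, SE 0.192, limma adjusted p = 0.000424) and 2.23-fold in Ring1b_KD (1.16, SE 0.192, adjusted p = 0.00231). Between the knockdowns the difference was 0.21 (SE 0.192, adjusted p = 0.499), while the next brightest probe set read -0.58. Both calls against Control held under each of the 17 alternative settings.

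Its closest relative, Rab27a, which docks lytic granules and melanosomes, read 7.41, 7.23 and 7.23 in Control, 6.96, 7.18 and 7.12 in CBFb_KD, and 7.08, 6.91 and 6.61 in Ring1b_KD. All knockdown arrays lay below all Control arrays, the opposite side from Rab27b. The fall was called in Ring1b_KD (-0.42, SE 0.113, adjusted p = 0.0287). In CBFb_KD the difference was -0.2 (adjusted p = 0.314), and the knockdowns were not called different (0.22, adjusted p = 0.208, or 0.26 and 0.0482 with the mean of its probe sets). The Ring1b_KD call was lost with the values as deposited (adjusted p = 0.0608). It was also lost without Ring1b_KD array 2 (0.0616) or array 3 (0.0858) and without Control array 1 (0.104), array 2 (0.0622) or array 3 (0.0649).

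Rab38 was the single RAB gene called lower in CBFb_KD by its chosen probe set. With Rab32 it forms a pair of related RABs that deliver cargo to melanosomes and platelet dense granules. Rab38 read 12.88, 12.81 and 12.7 in Control, 12.81, 12.62 and 12.64 in Ring1b_KD, and 11.95, 11.87 and 12 in CBFb_KD. The CBFb_KD arrays stood apart below all others, while Ring1b_KD and Control overlapped. The fall was 1.81-fold in CBFb_KD (-0.86, SE 0.0733, adjusted p = 1.56e-05), against -0.11 in Ring1b_KD (SE 0.0733, adjusted p = 0.391). CBFb_KD was also below Ring1b_KD (-0.75, adjusted p = 2.19e-05), and these calls held under all 17 settings.

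Rab32, its partner, differed in the other direction. Its signal was 7.17, 7.13 and 7.12 in Control, 7.42, 7.64 and 7.73 in CBFb_KD, and 7.12, 6.76 and 6.78 in Ring1b_KD. The groups did not overlap, with CBFb_KD highest and Ring1b_KD lowest. The rise in CBFb_KD was 1.37-fold (0.46, SE 0.107, adjusted p = 0.0104) and missed the threshold without CBFb_KD array 3 (0.39, adjusted p = 0.0517). In Ring1b_KD the difference was -0.25 (adjusted p = 0.149), which passed without Ring1b_KD array 1 (-0.37, adjusted p = 0.0375). The knockdowns differed by 0.71 (adjusted p = 0.000532), under all settings.

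Rab44, a large RAB with EF-hand and coiled-coil regions, and Rab29, which recruits the kinase LRRK2 to lysosomes and Golgi membranes, rose in Ring1b_KD. Rab44 read 8.19, 8.42 and 7.9 in Control, 8, 8.6 and 8.09 in CBFb_KD, and 8.81, 9.03 and 9.22 in Ring1b_KD. The Ring1b_KD arrays were above all others. The rise was 1.8-fold (0.85, SE 0.164, adjusted p = 0.00542), against 0.06 in CBFb_KD (adjusted p = 0.886), and the knockdowns differed by -0.79 (CBFb_KD minus Ring1b_KD, adjusted p = 0.00461). These calls held under all 17 settings.

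Rab29 read 9.98, 10.02 and 10.01 in Control, 10.21, 10.29 and 10.25 in CBFb_KD, and 10.58, 10.37 and 10.19 in Ring1b_KD. Both knockdowns lay above Control without overlap, and the rise was called in Ring1b_KD (0.38, SE 0.0915, adjusted p = 0.0177). In CBFb_KD the difference was 0.25 (adjusted p = 0.0921), which passed in a fit of those groups alone (0.0223) and without Ring1b_KD array 1 (0.0368) or 3 (0.04). The Ring1b_KD call was lost with the values as deposited (0.28, adjusted p = 0.105) and with centred arrays (0.19, adjusted p = 0.333). It was also lost without Ring1b_KD array 1 (adjusted p = 0.0518) or without Control array 1 (0.0588), array 2 (0.0572) or array 3 (0.0599).

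The Rab3 proteins control regulated exocytosis. Rab3d, found on secretory granules of non-neuronal cells, read 8.7, 8.69 and 8.58 in Control, 8.84, 8.69 and 8.6 in CBFb_KD, and 8.91, 8.77 and 8.78 in Ring1b_KD. Ring1b_KD lay just above Control and CBFb_KD overlapped both. Its differences from Control, 0.05 and 0.16, did not pass (adjusted p = 0.8 and 0.257). As a class, 3 of 12 granule RABs were called in CBFb_KD (25%, against 15.4% of all genes; 2 higher, 1 lower) and 4 in Ring1b_KD (33.3%, against 12.2%; 3 higher, 1 lower). Between the knockdowns there were 3 (25%, against 19.4%), with Rab32 higher and Rab38 and Rab44 lower in CBFb_KD. The 4 in Ring1b_KD include Rab29, which was put in the granule class although the sites given for it above are lysosomes and Golgi membranes. The Ring1b_KD count was 2, both higher, without any single Control array. The class medians were 0.06 in CBFb_KD and 0.02 in Ring1b_KD.

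**Figure D2:**
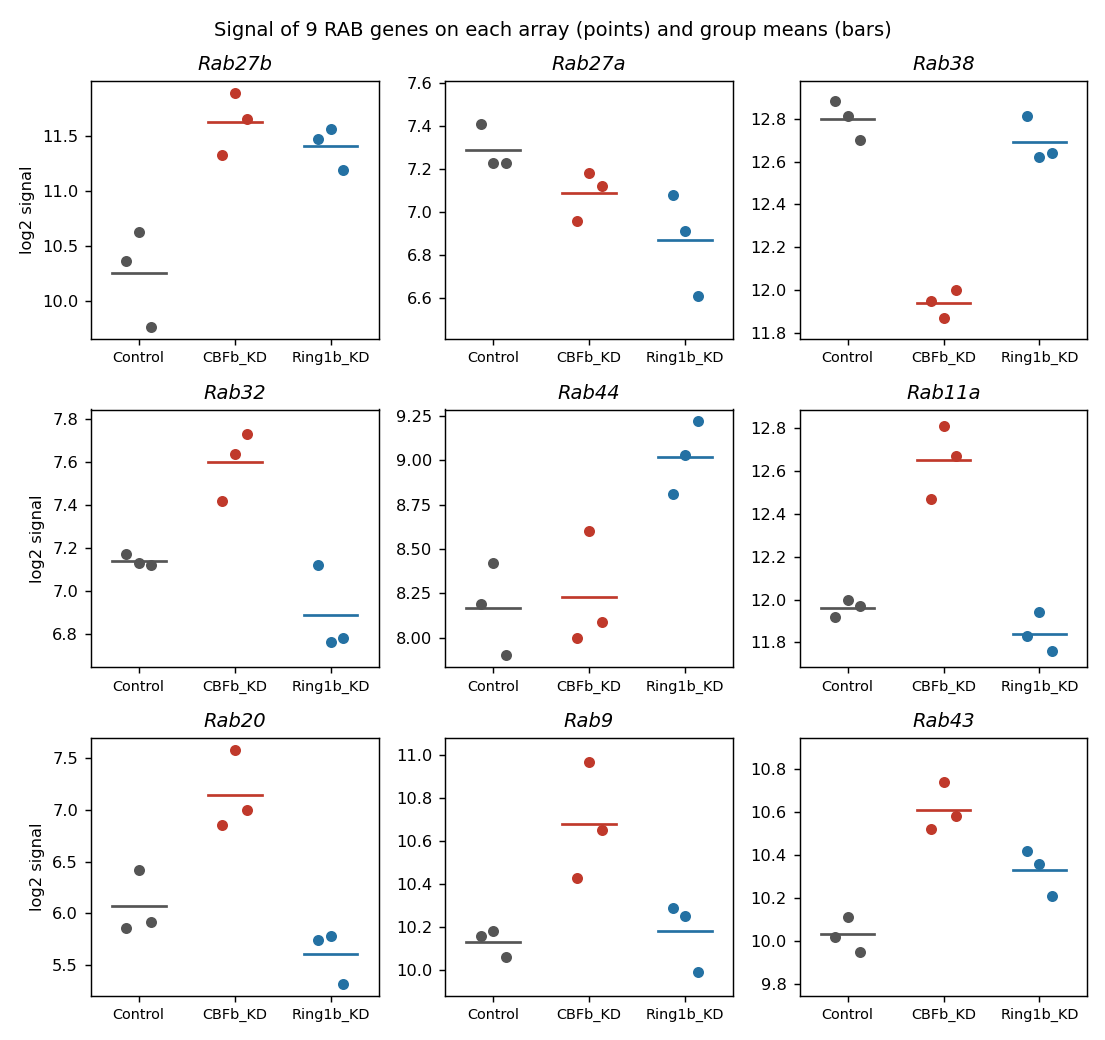
Normalized log2 signal of 9 RAB genes on each array (points) with group means (bars), 3 arrays a group and a separate axis for each gene. Rab27b lay higher in both knockdowns, Rab38 lower in CBFb_KD alone, and Rab44 higher in Ring1b_KD alone.

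Endosomal RABs were called in CBFb_KD for 6 of 21 genes (28.6%), all higher, where 15.4% of all genes were called and 7.78% rose. The class median was 0.08. The count was 3 without CBFb_KD array 3 or without Control array 3. Rab11a, the RAB of the recycling endosome, read 11.92, 12 and 11.97 in Control, 12.47, 12.81 and 12.67 in CBFb_KD, and 11.83, 11.94 and 11.76 in Ring1b_KD. The CBFb_KD arrays were above all others, and the rest overlapped. The rise was 1.61-fold (0.69, SE 0.086, adjusted p = 0.000192), and the knockdowns differed by 0.81 (adjusted p = 4.34e-05), both under all 17 settings. In Ring1b_KD the difference was -0.12 (SE 0.086, adjusted p = 0.402), but the other probe set of Rab11a, described with the probe sets, was lower there.

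Rab9, which returns mannose 6-phosphate receptors from late endosomes to the trans-Golgi network, read 10.16, 10.18 and 10.06 in Control, 10.43, 10.97 and 10.65 in CBFb_KD, and 10.29, 10.25 and 9.99 in Ring1b_KD. CBFb_KD lay above both other groups. The rise was 1.47-fold (0.55, SE 0.123, adjusted p = 0.00811) and the knockdowns differed by 0.51 (adjusted p = 0.0117), under all settings. In Ring1b_KD the difference was 0.04 (adjusted p = 0.867).

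Rab20, which takes part in phagosome maturation, had the highest log2 fold change of the endosomal class in CBFb_KD and a mean signal below the median gene in every group. It lay outside the rule for genes shown array by array and was added after its values were seen. Its signal was 5.86, 6.42 and 5.92 in Control, 6.85, 7.58 and 7 in CBFb_KD, and 5.74, 5.78 and 5.32 in Ring1b_KD. The groups did not overlap, in the order CBFb_KD, Control, Ring1b_KD. The rise in CBFb_KD was 2.11-fold (1.08, SE 0.19, adjusted p = 0.00181), and the knockdowns differed 2.89-fold (1.53, adjusted p = 0.000134), under all settings. In Ring1b_KD the difference was -0.45 (SE 0.19, adjusted p = 0.148).

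Rab14, which acts between the trans-Golgi network and endosomes, read 10.49, 10.67 and 10.57 in Control, 10.9, 10.88 and 10.97 in CBFb_KD, and 10.52, 10.61 and 10.24 in Ring1b_KD. CBFb_KD was above both other groups. Its rise against Control (0.34, SE 0.0956, adjusted p = 0.0283) held under 9 of 17 settings. It was lost with the values as deposited, with centred arrays and with the mean of its probe sets (0.18), and also when any 1 CBFb_KD array, Control array 1 or Control array 3 was left out (adjusted p up to 0.222 over all settings). The difference between the knockdowns (0.46, adjusted p = 0.00463) was lost with the mean of its probe sets (0.2, adjusted p = 0.14).

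Rab4a, which sends cargo back to the surface from early endosomes, rose in Ring1b_KD. It read 10.18, 10.52 and 10.04 in Control, 10.32, 10.76 and 10.36 in CBFb_KD, and 10.63, 10.73 and 10.92 in Ring1b_KD. Ring1b_KD lay above Control, and CBFb_KD overlapped both. The rise was 1.43-fold (0.51, SE 0.139, adjusted p = 0.0296) and held under 10 of 17 settings. It was lost on both other scalings (0.4, adjusted p = 0.0837 as deposited, and 0.32, adjusted p = 0.2 centred) and with the mean of its probe sets (adjusted p = 0.0654). Without Ring1b_KD array 2 or 3 its adjusted p was 0.0683 or 0.0905, and without Control array 1 or 3 it was 0.0929 or 0.126.

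Rab5a, the early endosome RAB, read 10.09, 10.31 and 10.35 in Control, 10.2, 10.38 and 10.26 in CBFb_KD, and 10.4, 10.44 and 10.41 in Ring1b_KD. Ring1b_KD lay narrowly above the others, and the differences from Control, 0.03 and 0.17, did not pass (adjusted p = 0.891 and 0.239). Rab7, which drives fusion of late endosomes with lysosomes, read 12.25, 12.23 and 12.21 in Control, 12.36, 12.29 and 12.38 in CBFb_KD, and 12.1, 12.15 and 12.09 in Ring1b_KD. Its groups did not overlap, in the order CBFb_KD, Control, Ring1b_KD, though each step was small. The knockdowns differed by 0.23 (SE 0.0597, adjusted p = 0.0165), where the differences from Control, 0.12 and -0.11, did not pass (adjusted p = 0.256 and 0.247). With centred arrays Rab7 was lower in Ring1b_KD than in Control (-0.28, adjusted p = 0.0297). The difference between the knockdowns missed the threshold without CBFb_KD array 3 (0.21, adjusted p = 0.0743), in a fit of those groups alone (0.0565) and with the mean of the probe sets (0.0862).

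The other endosomal calls were smaller. In CBFb_KD, Rab5c, a second early endosome RAB, rose by 0.36 (adjusted p = 0.0127) and Rab4b, the relative of Rab4a, rose by 0.3 (adjusted p = 0.0482). Rab5c missed the threshold without CBFb_KD array 3 (0.0684) or Control array 3 (0.0665), and Rab4b missed it with centred arrays (0.0743) and without any single CBFb_KD or Control array (adjusted p from 0.0673 to 0.213). In Ring1b_KD, Rab22a, which acts on early endosomes, rose by 0.34 (adjusted p = 0.0428), and this held under 8 of 17 settings (adjusted p from 0.0347 to 0.369). Rab31, which carries cargo from the trans-Golgi network to endosomes, fell by 0.36 there (adjusted p = 0.00948) under all 17 settings, at a signal below the median gene. In all, 3 of 21 endosomal RABs were called in Ring1b_KD (14.3%, against 12.2% of all genes), 2 higher and 1 lower, with a class median of -0.01. That count was 1, Rab31, with the values as deposited and without Ring1b_KD array 2 or 3 or Control array 1 or 3.

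Between the knockdowns, 7 of 21 endosomal RABs were called (33.3%, against 19.4% of all genes), all higher in CBFb_KD (10.1% of all genes were). With the mean of each gene's probe sets there were 4. Beside Rab7, Rab9, Rab11a, Rab14 and Rab20 these were Rab4b (0.36, adjusted p = 0.0196) and Rab31 (0.26, adjusted p = 0.0326). The Rab4b difference held under 13 of 17 settings and that of Rab31 under 9. Of these 7 genes, 5 also rose in CBFb_KD against Control, and Rab31 fell in Ring1b_KD against Control.

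Secretory RABs were called in CBFb_KD for 6 of 16 genes (37.5%), all higher, where 15.4% of all genes were called and 7.78% rose. The class median was 0.13. The count dropped to 2 genes when CBFb_KD array 2 was left out, and to 3 when CBFb_KD array 3, Control array 2 or Control array 3 was. Rab43, which acts at the Golgi in traffic of membrane receptors, led the class and also rose in Ring1b_KD. It read 10.02, 10.11 and 9.95 in Control, 10.52, 10.74 and 10.58 in CBFb_KD, and 10.42, 10.36 and 10.21 in Ring1b_KD. The groups did not overlap, with CBFb_KD highest and Control lowest. The rise was 1.5-fold in CBFb_KD (0.59, SE 0.0871, adjusted p = 0.000617), under all 17 settings.

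In Ring1b_KD the Rab43 rise was 1.23-fold (0.3, SE 0.0871, adjusted p = 0.0386) and held under 8 of 17 settings. It was lost on both other scalings (0.2, adjusted p = 0.215 as deposited, and 0.11, adjusted p = 0.58 centred). Leaving out CBFb_KD array 3, Ring1b_KD array 1 or 2, or any 1 Control array also ended it (adjusted p from 0.0578 to 0.146). The difference between the knockdowns (0.28, adjusted p = 0.0377) held under 9 of 17 settings and was 0.06 with the mean of the probe sets (adjusted p = 0.755).

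Rab33b, a Golgi RAB that also binds the autophagy factor ATG16L1, read 8.54, 8.68 and 8.56 in Control, 8.94, 8.95 and 8.85 in CBFb_KD, and 8.36, 8.57 and 8.38 in Ring1b_KD. CBFb_KD lay above both other groups. It rose by 0.32 in CBFb_KD (SE 0.0842, adjusted p = 0.0194) and was 0.48 above Ring1b_KD (adjusted p = 0.00161). The first of these was lost without CBFb_KD array 2 (adjusted p = 0.0741), Control array 1 (0.0784) or Control array 3 (0.0822), and the second held under all settings.

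The other secretory calls in CBFb_KD were Rab6a, the main Golgi RAB (0.36, adjusted p = 0.0167), Rab30, a Golgi RAB below the median gene (0.48, adjusted p = 0.0113), Rab2b, of early secretory and Golgi membranes (0.34, adjusted p = 0.0451), and Rab1b, which drives transport from the endoplasmic reticulum to the Golgi (0.29, adjusted p = 0.0188). Each lost its call without at least 1 array. Rab6a also lost it as deposited (0.0591), with centred arrays (0.113) and with the mean of its probe sets (0.123), and Rab1b with centred arrays (0.0655). Without CBFb_KD array 2 the adjusted p was 0.0669 for Rab6a, 0.0576 for Rab30 and 0.0936 for Rab2b, and without CBFb_KD array 3 it was 0.0634 for Rab6a, 0.149 for Rab2b and 0.0594 for Rab1b. Without Control array 1 Rab6a had 0.0816. Without Control array 2 the values were 0.0512 for Rab30, 0.16 for Rab2b and 0.0744 for Rab1b, and without Control array 3 they were 0.15 for Rab2b and 0.0887 for Rab1b. Rab2b also missed it without CBFb_KD array 1 (0.0704) or Ring1b_KD array 1 (0.0565).

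In Ring1b_KD, Rab43 was the single secretory RAB called of 16 (6.25%, against 12.2% of all genes, class median 0.08), where 0 were called with the values as deposited and 2 were called lower with centred arrays. Between the knockdowns 5 were called (31.2%, against 19.4% of all genes): Rab43, Rab33b, Rab1b (0.27, adjusted p = 0.0223) and Rab30 (0.53, adjusted p = 0.00564) were higher in CBFb_KD, and Rab8b was lower. Leaving out CBFb_KD array 3 gave 2 such genes, and leaving out Ring1b_KD array 3 gave 3. Rab8b, like Rab8a, carries cargo from the Golgi to the cell surface and cilium. It read 10.67, 10.74 and 10.52 in Control, 10.46, 10.6 and 10.43 in CBFb_KD, and 10.91, 10.95 and 10.7 in Ring1b_KD. CBFb_KD lay below Ring1b_KD, and Control overlapped both. The difference (-0.36, SE 0.0905, adjusted p = 0.0148) was lost as deposited (-0.24, adjusted p = 0.114), with centred arrays (-0.16, adjusted p = 0.379), without CBFb_KD array 3 (0.0656) and without Ring1b_KD array 2 (0.0532). Against Control, Rab8b in CBFb_KD read -0.15 (adjusted p = 0.375). With the mean of its probe sets it was called lower there (-0.23, adjusted p = 0.0254).

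Rab8a read 11.11, 11.04 and 11.1 in Control, 11.15, 11 and 10.98 in CBFb_KD, and 11.22, 11.14 and 11.2 in Ring1b_KD. Its differences from Control, -0.04 (SE 0.0712) and 0.1, did not pass (adjusted p = 0.809 and 0.384). Among the 10 other RABs limma called 0 against Control in either knockdown, where 2 in each had an unadjusted p under 0.05. On the other scalings Rab28 was lower in Ring1b_KD (-0.34, adjusted p = 0.0211 as deposited, and -0.43, adjusted p = 0.0108 centred), as it was without Ring1b_KD array 1 (-0.29, adjusted p = 0.0388). Between the knockdowns, Rab28, linked to cilia and photoreceptors, was higher in CBFb_KD (0.28, adjusted p = 0.0214), under 13 of 17 settings. Rab36, a relative of Rab34, was lower. Rab36 read 8.09, 8.05 and 8.26 in Control, 8.1, 7.95 and 7.97 in CBFb_KD, and 8.38, 8.25 and 8.27 in Ring1b_KD. CBFb_KD lay below Ring1b_KD, with Control overlapping both. The difference (-0.3, SE 0.085, adjusted p = 0.0262) held under 11 of 17 settings (adjusted p from 0.0187 to 0.273).

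**Figure D3:**
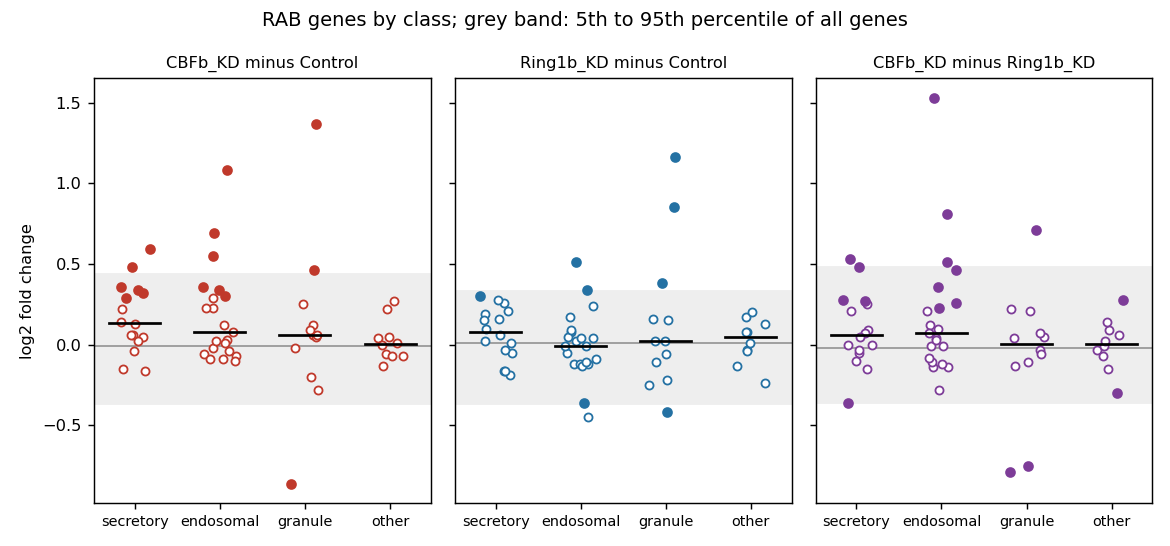
Log2 fold changes of the RAB genes by class in the 3 comparisons, each point a gene, with the 5th to 95th percentile of all genes as a grey band. In CBFb_KD the band runs from -0.37 to 0.44, and the secretory and endosomal genes called there all lie above 0.

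Different probe sets read different stretches of a transcript, and 38 of the 59 genes had more than 1, with 132 probe sets in all. For these the fit and the adjustment of p-values ran over all probe sets except controls, with or without a single gene symbol. The p-values therefore differ a little from those above. Of the 4 Rab27b probe sets, 3 rose in both knockdowns, the other 2 of them by 1.06 and 1.44 in CBFb_KD and by 1.63 and 1.04 in Ring1b_KD. The dimmest of the 4 read 0.06 and 0.16 and was not called. The second Rab38 probe set fell by 0.82 in CBFb_KD (adjusted p = 9.39e-05) and read -0.01 in Ring1b_KD. Against Control the chosen and the next brightest probe set of Rab27b gave the same direction. Between the knockdowns they did not: the chosen one read 0.21 (adjusted p = 0.55) and the next was lower in CBFb_KD (-0.58, adjusted p = 0.00955).

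Rab11a probe sets disagreed. The second Rab11a probe set, with a mean of 9.82, read 0.2 in CBFb_KD (adjusted p = 0.382) and fell by 1.31 in Ring1b_KD (adjusted p = 5.6e-05). Both probe sets placed Rab11a higher in CBFb_KD than in Ring1b_KD, by 0.81 and by 1.51 (adjusted p = 9.33e-05 and 7.97e-06). Averaging them gave -0.72 in Ring1b_KD (adjusted p = 0.000902) with 0.44 to 0.78 in CBFb_KD over the 17 settings. Which stretch of the transcript each reads is not stated in the files.

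Rab2a, the relative of Rab2b that acts in traffic between the endoplasmic reticulum and Golgi, was not called by its brightest probe set (-0.16 in both knockdowns). Of its other 6 probe sets, 2 fell in both, by 0.6 and 0.57 in CBFb_KD (adjusted p = 0.000964 and 0.00115) and by 0.44 and 0.42 in Ring1b_KD (adjusted p = 0.00836 and 0.00933). Rab37, a granule RAB of mast cells, read -0.22 in Ring1b_KD by its chosen probe set and fell by 0.9 by the other (adjusted p = 0.000639). A second Rab10 probe set rose by 0.55 in Ring1b_KD (adjusted p = 0.0275) where the chosen one read 0.15. The other Rab8b probe set, with a mean of 5.91, fell by 0.31 in CBFb_KD (adjusted p = 0.036). For Rab2b the chosen probe set read 0.26 in Ring1b_KD, and others rose by 0.64 and 0.39 (adjusted p = 0.00113 and 0.0207). The rest read 0.04 and -0.06. Rab2b was called there with the mean of its probe sets (0.25, adjusted p = 0.0353) and without Ring1b_KD array 3 (0.37, adjusted p = 0.0265). The remaining Rab27a probe sets with a call fell in Ring1b_KD too, by 0.34 and 0.8 (adjusted p = 0.0228 and 0.00425). With the mean of each gene's probe sets, 12 RAB genes rose and 3 fell in CBFb_KD, 4 rose and 5 fell in Ring1b_KD, and 9 were higher and 3 lower in CBFb_KD than in Ring1b_KD. These probe sets were picked out after their values were seen.

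**Figure D4:**
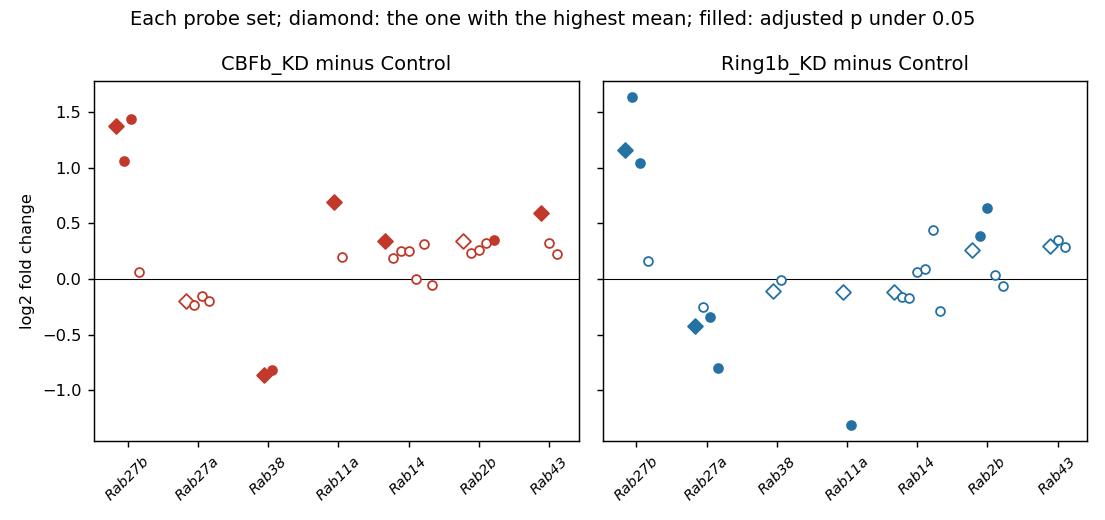
Log2 fold change of every probe set of selected RAB genes in each knockdown against Control, with a diamond for the probe set that represents the gene and filled symbols for an adjusted p under 0.05. The Rab11a probe sets read -0.12 and -1.31 in Ring1b_KD, and 3 of 4 Rab27b probe sets rose in both knockdowns.

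The proteins that load, switch and read RABs were measured as well. A list of 7 genes covered prenylation, membrane extraction and delivery (GDI), and also Rabif, which belongs to neither function. Rabif fell in CBFb_KD and Chml fell in Ring1b_KD. That was 14.3% of the list in each, near the 15.4% and 12.2% of all genes called. Rabif, which holds nucleotide-free exocytic RABs and keeps them from degradation, read 9.37, 9.51 and 9.53 in Control, 9.79, 9.51 and 9.7 in Ring1b_KD, and 8.71, 8.71 and 8.72 in CBFb_KD. CBFb_KD lay below all other arrays, with a fall of 1.69-fold (-0.76, SE 0.0873, adjusted p = 0.000108). With the replicate number as a block, 2 of the 7 were called in CBFb_KD, 1 higher and 1 lower. Chml, a RAB escort protein that presents RABs for prenylation, fell by 0.35 in Ring1b_KD (adjusted p = 0.0261), which was lost as deposited (0.0506), with the mean of its probe sets (0.275), and without Ring1b_KD array 3 (0.0764), Control array 1 (0.062) or Control array 2 (0.118).

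Of 32 GEFs, 7 rose and 0 fell in CBFb_KD (21.9% against the background of 15.4%). Rabgef1, an exchange factor for Rab5, read 10.36, 10.58 and 10.43 in Control, 10.69, 10.86 and 10.34 in Ring1b_KD, and 11.28, 11.48 and 11.44 in CBFb_KD. CBFb_KD stood above the rest, with a 1.92-fold rise (0.94, SE 0.117, adjusted p = 0.000185). Dennd2d rose by 0.81 (adjusted p = 0.00223) and Dennd1c, an exchange factor for Rab35, by 0.59 (adjusted p = 0.00763). It dropped to 3 genes when CBFb_KD array 2 or Control array 1 was left out, and to 4 when Control array 2 or 3 was.

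In Ring1b_KD, 4 GEFs rose and 4 fell (25%, against 12.2% of all genes), a split of 2 and 5 with the values as deposited and 0 and 6 with centred arrays. Dennd6a, an exchange factor for Rab14, fell by 0.45 (adjusted p = 0.0103, or 0.0552 with the mean of its probe sets) and Rab3ip, an exchange factor for Rab8, fell by 0.43 (adjusted p = 0.023). Dennd3, an exchange factor for Rab12, rose by 0.4 (adjusted p = 0.0133), but not with centred arrays (0.27, adjusted p = 0.0569) or without Control array 2 (0.33, adjusted p = 0.0681). Without Control array 2 the GEF count was 1, and without Control array 3 it was 2. The Rab3ip call was lost without Ring1b_KD array 1 (0.0687) or 2 (0.0613) and without Control array 2 (0.0505) or 3 (0.101).

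Of 33 GAPs, 3 rose and 1 fell in CBFb_KD (12.1%) and 2 rose in Ring1b_KD (6.06%), both below the background of all genes. Evi5, a TBC-domain protein linked to Rab11, was called in both. It read 8.24, 8.27 and 8.08 in Control, 8.88, 8.87 and 8.77 in CBFb_KD, and 8.55, 8.4 and 8.59 in Ring1b_KD. The groups did not overlap, and the rise was 0.64 in CBFb_KD (SE 0.0855, adjusted p = 0.000292). The rise of 0.32 in Ring1b_KD (adjusted p = 0.0286) was lost as deposited (0.0575), with centred arrays (0.211), with the mean of its probe sets (0.2, adjusted p = 0.153), without Ring1b_KD array 1 (0.0741) or 3 (0.0774), and without any single Control array (adjusted p from 0.0545 to 0.131). In CBFb_KD, Tbc1d22a rose by 0.44 (adjusted p = 0.00185) and Tbc1d14, linked to Rab11 and recycling endosomes, rose by 0.39 (adjusted p = 0.0105), the latter not without Control array 1 (0.0535) or with the mean of its probe sets (0.063). Tbc1d17, the other GAP called in Ring1b_KD, rose by 0.32 (adjusted p = 0.0279), a call kept under 10 of 17 settings. With centred arrays no GAP rose and 8 fell in Ring1b_KD, and the count was 0 without any single Control array.

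Among 25 endosomal effectors, 7 rose in CBFb_KD (28%, against 15.4% of all genes called) and 0 fell. Rab11fip5, which binds Rab11 on recycling endosomes, read 6.75, 7.01 and 6.88 in Control, 7.08, 7.05 and 6.79 in Ring1b_KD, and 7.98, 8.52 and 8.32 in CBFb_KD. All CBFb_KD arrays lay above all others, a 2.63-fold rise (1.4, SE 0.13, adjusted p = 2.6e-05). Plin3, which binds Rab9 and coats lipid droplets, rose by 0.89 (adjusted p = 0.000146), and Rabepk, another Rab9 effector, rose by 0.84 (adjusted p = 0.00124). Rab11a and Rab11fip5, and Rab9 with Plin3 and Rabepk, thus rose in the same arrays. Of the other Rab11fip genes listed, Rab11fip3 also rose in CBFb_KD (0.42). Rab11fip1 (0.09), Rab11fip2 (-0.07) and Rab11fip4 (-0.05) were not called there.

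In Ring1b_KD, 3 endosomal effectors rose and 2 fell (20%, against 12.2% of all genes), a split of 2 and 4 with the values as deposited and with centred arrays. Rabep1, a Rab5 effector, fell by 0.46 (adjusted p = 0.0073), under all settings. Rab11fip1, a Rab11 effector, rose by 0.78 (adjusted p = 0.0137) and missed the threshold without Control array 3 (adjusted p = 0.0526). Fyco1, which links Rab7 to kinesin, rose by 0.49 (adjusted p = 0.0158) and by 0.4 in CBFb_KD (adjusted p = 0.0356). In Ring1b_KD the Fyco1 call was lost without Ring1b_KD array 2 (0.0616) or Control array 2 (0.0739) or 3 (0.0754), and in CBFb_KD without any single CBFb_KD array, Ring1b_KD array 1, or Control array 2 or 3 (adjusted p from 0.0502 to 0.158). The class count was 1 without Control array 3, and 3 without Ring1b_KD array 2 or Control array 1.

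Among 33 granule and secretory effectors, 7 rose and 1 fell in CBFb_KD (24.2%, against 15.4% of all genes). Sytl1, a synaptotagmin-like Rab27 effector, read 7.73, 7.78 and 7.67 in Control, 7.88, 7.69 and 8.04 in Ring1b_KD, and 9.14, 9.27 and 9.11 in CBFb_KD. The CBFb_KD arrays stood apart, with a 2.72-fold rise (1.44, SE 0.0951, adjusted p = 1.89e-06), against 0.14 in Ring1b_KD (adjusted p = 0.373), and the knockdowns differed by 1.3 (adjusted p = 2.51e-06). Unc13d, the Rab27 effector Munc13-4 that primes granules for release, rose by 0.69 (adjusted p = 0.000674), and the exocyst subunit Exoc5 fell by 0.53 (adjusted p = 0.000291). Of the other exocyst genes listed, Exoc6 (0.47, adjusted p = 0.00276) and Exoc2 (0.25, adjusted p = 0.0451) rose in CBFb_KD, and the rest were not called there. Rab27b itself rose in both knockdowns, while Sytl1 and Unc13d were called in CBFb_KD and read 0.14 and -0.02 in Ring1b_KD. They were named for their small p-values. Other Rab27 effectors of the list were not called in CBFb_KD: Sytl2 (0.13), Sytl4 (0.02), Mlph (-0.1), Myrip (0.11), Exph5 (-0.02) and Rph3al (-0.14).

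In Ring1b_KD, 3 of these effectors rose and 1 fell (12.1%, against 12.2% of all genes), where 0 rose and 2 fell with the values as deposited and 0 rose and 4 fell with centred arrays. Vamp8, the main granule release SNARE of platelets, rose by 0.3 (adjusted p = 0.0134), Exoc6b of the exocyst rose by 0.32 (adjusted p = 0.0361), and Dtnbp1, the dysbindin subunit of the granule biogenesis complex BLOC-1, fell by 0.33 (adjusted p = 0.0337). The Vamp8 rise was lost as deposited (0.0896), with centred arrays (0.429) and without Control array 3 (0.0633). Those of Exoc6b and Dtnbp1 were lost without any single Control array (adjusted p from 0.0763 to 0.115 and from 0.0728 to 0.139) and without Ring1b_KD array 1 or 3 (0.113 and 0.09 for Exoc6b, 0.0596 and 0.0984 for Dtnbp1). Exoc6b was also not called as deposited (0.0761), with centred arrays (0.278) or without CBFb_KD array 3, whose group shares the fit (0.054). The count was 0 without Control array 3.

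Of 15 Golgi effectors, 2 rose in CBFb_KD (13.3%, against 15.4% of all genes): Micall2, a Rab13 effector, by 0.55 (adjusted p = 0.00157) and the tether Golga2 by 0.42 (adjusted p = 0.00962), the second missing the threshold without Control array 1 (0.37, adjusted p = 0.0511). In Ring1b_KD the Golgi stacking protein Gorasp2 fell by 0.3 (adjusted p = 0.00915), under all settings. Bicd2, a dynein adaptor bound by Rab6, fell by 0.33 (adjusted p = 0.0426), and the phosphatase Inpp5b rose by 0.25 (adjusted p = 0.0386). Without Ring1b_KD array 1 or 2 or any single Control array, neither of these was called (adjusted p from 0.0534 to 0.15). With the mean of its probe sets Bicd2 read -0.09 (adjusted p = 0.513), and Inpp5b was not called on either other scaling (0.267 and 0.783). Of the partner genes named in CBFb_KD, 13 of 16 kept their call under all 17 settings, and of those named in Ring1b_KD 2 of 15, Rabep1 and Gorasp2.

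**Figure D5:**
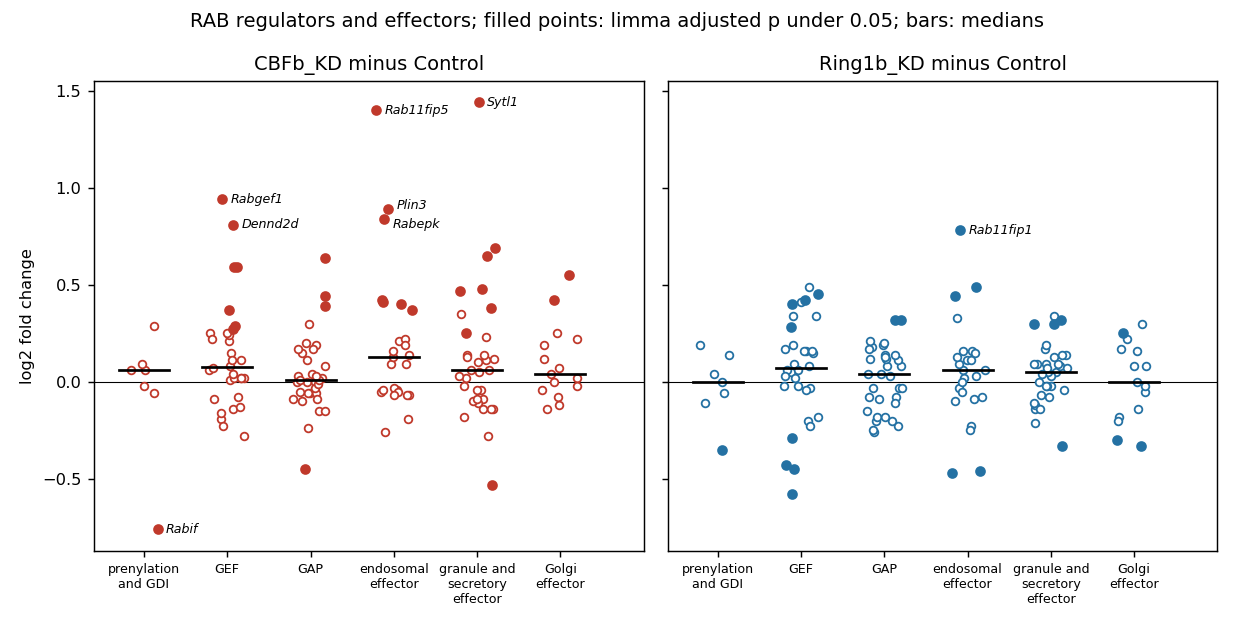
Log2 fold change of the measured RAB regulators and effectors by list in each knockdown against Control, each point a gene, filled at an adjusted p under 0.05, with bars at the medians. Sytl1 (1.44) and Rab11fip5 (1.4) are the highest points in CBFb_KD.

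Markers of megakaryocytes and of other blood cells moved in the same arrays. Of 14 megakaryocyte markers, 6 rose and 0 fell in CBFb_KD (42.9%, where 15.4% of all genes were called and 7.78% rose). Among the 6 were Gp9 (2.32) and Itga2b (1.04). In Ring1b_KD 1 fell (Vwf, -0.75), or 7.14% against 12.2% of all genes called. The log2 of the summed megakaryocyte marker signal was 15.36 to 15.39 in CBFb_KD, 14.32 to 15.15 in Ring1b_KD and 14.69 to 15.03 in Control. Such sums add unlogged signal, so the brightest marker weighs most. Here that was Pf4, which was not called in CBFb_KD (0.32, limma adjusted p = 0.266). Erythroid markers rose in CBFb_KD for 3 of 6 (50%), which were Alas2, Epb42 and Epor. Their sums were 12.32 to 12.52 against 11.92 to 12.13 in Control. Of 8 mast cell and basophil markers, 3 were called in each knockdown (37.5%). Hdc rose in both knockdowns and Ms4a2 fell in both, Fcer1a rose in Ring1b_KD and Kit fell in CBFb_KD. The mast cell sums were 11.97 to 12.01 in CBFb_KD, 11.88 to 12.23 in Ring1b_KD and 11.42 to 12.03 in Control.

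Granulocyte and monocyte markers were called for 1 of 10, Prtn3 in CBFb_KD (10%, against 15.4% of all genes). Mpo lay at 6.27 to 6.32, below the median gene, in every group. The sums of the 10 markers were 10.46 to 10.77 in CBFb_KD, 10.27 to 10.54 in Ring1b_KD and 10.3 to 10.53 in Control. Lymphocyte markers were called for 1 of 7, Cd8a in Ring1b_KD (14.3%, against 12.2% of all genes). Those of fibroblasts and endothelium were called for 0 of 7 by limma, with 1 in each knockdown at an unadjusted p under 0.05. Their sums were 11.92 to 12.11 in CBFb_KD, 11.43 to 12.15 in Ring1b_KD and 11.53 to 11.8 in Control. The megakaryocyte and erythroid sums, and also the fibroblast and endothelium sums, were thus above Control in CBFb_KD, as were 14 of the 15 RAB genes called there. The mast cell sums of both knockdowns overlapped Control, and the called mast cell markers went in both directions. The part of these markers in the RAB values was not tested.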

How the data were processed

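RNA of 9 samples was hybridised to 1-colour Affymetrix arrays after oligo-dT priming and biotin labelling, per the labels' protocols. The authors deposited log2 values for 45101 probe sets, and the log2 scale was read off the spread of the values. How these deposited values were summarised and normalized, and by which software, is not given in the sources used here. The values were quantile normalized with limma 3.58.1 (R 4.3.3), because array medians differed by 0.137, and 64 control probe sets were dropped. By the platform annotation 34945 probe sets have 1 gene symbol, 932 have several and 9160 are unnamed here. The brightest single-symbol probe set, by its mean on the 9 arrays, stood for each of 18193 genes. Group means were fitted to all 9 arrays with lmFit and eBayes(trend = TRUE), with 6.805 prior degrees of freedom. The p-values, two-sided, were Benjamini-Hochberg adjusted over all genes and called under 0.05. The fit was tested on simulated data. Deviations of same-numbered arrays correlated by 0.2, 0.38 and 0.2 between CBFb_KD and Control, a hint of pairing read from the data and not from the labels. With Ring1b_KD arrays these correlations ranged from -0.07 to 0.15. The main fit used no pairing, so the p-values given do not account for it. A block for the replicate number was among the alternatives.

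The RAB members, classes, partner lists and markers were chosen with earlier results of these data known. Array values are given for 9 RAB genes with known roles (Rab27a, Rab27b, Rab32, Rab38, Rab3d, Rab8a, Rab11a, Rab5a and Rab7) and for up to 5 called genes per direction and comparison by smallest adjusted p, whose higher group mean reached the median gene. Other called members are named with their fold change, as are up to 3 called genes per partner list and knockdown. The 17 alternatives were the values as deposited, arrays centred on their medians, averaging the probe sets of a gene, a filter dropping the dimmest 25%, robust variance, no variance trend, a fit of 2 groups, a block for the replicate number, and leaving out each array.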

Additional observations from a re-analysis of the deposited data

How the results depend on the processing

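The count of RAB genes called in Ring1b_KD went from 8 to 5 with the values as deposited. Leaving out 1 array at a time, it ranged from 3 to 8, that in CBFb_KD from 8 to 16 and that between the knockdowns from 11 to 17. Of the RAB calls, 6 of 15 in CBFb_KD, 3 of 8 in Ring1b_KD and 8 of 17 between the knockdowns held under all alternatives that could be fitted. None of the results reported by fold change reversed as a called value. In Ring1b_KD the split of higher to lower RAB calls followed the scaling, where the median of the RAB genes was 0.02 as normalized and -0.07 with centred arrays; the cause was not tested. Over all groups, 8 of 9 arrays deviated most like an array of their own number, a hint from the data and not from the design. With the replicate number as a block, 15 RAB genes were called in CBFb_KD, 9 in Ring1b_KD, where Rab20 was added as lower (-0.45, adjusted p = 0.0224), and 17 between the knockdowns. Apart from Rab20 and the prenylation and GDI list in CBFb_KD, the block changed no call of a named RAB or partner gene and moved no RAB, class or partner count by over 1.5 times. Signals near the floor limit what can be said of the 20 RAB genes below the median gene.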
